A study of Mus musculus with 6 samples.

Results

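The genes described here are 40 cell cycle and mitosis genes, found by symbol among the 26332 genes with values in the deposited table. They comprise 13 genes of S phase (DNA replication and entry into it), 5 cyclins and kinases of G1, 18 genes of mitosis and cytokinesis, and 4 inhibitors of the cycle. They were measured in RNA of atrial cardiomyocyte nuclei from 3 Prrx1(R1A)-/- mice and 3 control mice aged 8 to 12 weeks, with 1 library per animal. Nuclei of both atria were combined per animal and sorted by flow cytometry for PCM1, a protein at the nuclear surface of cardiomyocytes. The labels name the allele R1A, here carried on both chromosome copies, and the study's title speaks of a noncoding variant region with control over Prrx1. The labels give no promoter or cell type that would restrict the allele, and they describe the other genotype only as control. Column headers of the deposited counts mark the control libraries as wt. The comparison asks how these genes differ in atrial cardiomyocyte nuclei between the genotypes.

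Cyclins paired with cyclin-dependent kinases drive a cell through its cycle. Cyclin D with Cdk4 or Cdk6, and then cyclin E with Cdk2, phosphorylate the retinoblastoma protein Rb1, which releases E2F transcription factors and with them the genes of DNA replication. Cyclin A and cyclin B with Cdk1 then carry the cell through G2 and mitosis, while Cdkn1a, Cdkn1b and Cdkn1c hold the kinases back. Cardiomyocytes of adult mice rarely divide, and much of the cycling in an adult heart takes place in its other cell types.

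Promoters of mitosis genes and of S phase genes are known for different short words. The cell cycle genes homology region (CHR) of mitosis genes is bound by the DREAM complex in quiescent cells, and S phase genes carry E2F sites. RefSeq windows from 250 bases before to 50 bases after the gene start (GRCm38.p6) were at hand for 31 of the 40 genes, with 34 windows. The CHR words TTTGAA and TTCGAA, searched on both strands, stood in the windows of 12 of 15 mitosis genes (80.0%), against 2 of 11 S phase genes (18.2%) and 1838 of 11171 tested genes with a window (16.5%). The E2F words TTTCCCGC, TTTCGCGC, TTTGCCGC and TTTGGCGC, also on both strands, stood in 5 of 11 S phase genes (45.5%), against 1 of 15 mitosis genes (6.67%) and 498 of 11171 tested genes (4.46%). The word CCAAT, read on both strands, was common to the groups: 13 of 15 mitosis genes and 9 of 11 S phase genes held it, against 41.1% of all 27025 genes with a window. Words of different motifs overlapped at 1 place among the 31 genes with a window, in Mcm7.

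The windows of 5 genes named below show these words. Cenpf, Top2a and Kif11 are the mitosis genes with the smallest p-values between genotypes, and the capitals in them mark the CHR words or their reverse complement TTCAAA. Cdk2, Mcm2 and Mcm7 are the S phase genes with the smallest p-values. Cdk2 and Mcm7 are shown, and the capitals there mark the E2F words or the reverse complement GCGGGAAA. Mcm2 is not shown, since its window held 0 E2F words. It held 1 CHR word, beginning at −70. Each sequence runs 5′ to 3′ along the gene's own strand.
Cenpf, chr1:189688037-189688336, minus strand: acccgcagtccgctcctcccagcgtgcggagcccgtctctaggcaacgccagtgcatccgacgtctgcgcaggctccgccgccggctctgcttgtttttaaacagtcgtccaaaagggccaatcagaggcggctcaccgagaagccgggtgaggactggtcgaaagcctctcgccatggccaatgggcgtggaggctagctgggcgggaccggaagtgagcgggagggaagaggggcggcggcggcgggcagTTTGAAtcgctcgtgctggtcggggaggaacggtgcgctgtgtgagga
Top2a, chr11:99024140-99024439, minus strand: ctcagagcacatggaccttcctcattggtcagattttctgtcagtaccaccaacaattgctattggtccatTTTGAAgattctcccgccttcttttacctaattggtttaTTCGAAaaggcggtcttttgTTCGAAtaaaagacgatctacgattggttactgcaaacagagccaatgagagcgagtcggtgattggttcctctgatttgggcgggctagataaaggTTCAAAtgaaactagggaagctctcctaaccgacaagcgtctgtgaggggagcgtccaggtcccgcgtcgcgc
Kif11, chr19:37376132-37376431, plus strand: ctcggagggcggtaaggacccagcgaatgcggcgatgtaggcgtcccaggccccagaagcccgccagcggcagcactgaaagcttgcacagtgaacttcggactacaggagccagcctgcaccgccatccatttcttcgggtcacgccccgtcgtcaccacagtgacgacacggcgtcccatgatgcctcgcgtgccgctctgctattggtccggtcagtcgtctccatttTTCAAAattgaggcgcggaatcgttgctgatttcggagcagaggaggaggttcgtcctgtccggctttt
Cdk2, chr10:128705002-128705301, minus strand: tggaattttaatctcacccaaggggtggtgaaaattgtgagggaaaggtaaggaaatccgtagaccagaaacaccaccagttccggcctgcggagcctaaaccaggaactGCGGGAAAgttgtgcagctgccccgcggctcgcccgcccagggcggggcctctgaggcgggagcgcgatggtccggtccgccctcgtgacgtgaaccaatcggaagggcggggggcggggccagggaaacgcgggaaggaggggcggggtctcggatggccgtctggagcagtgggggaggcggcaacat
Mcm7, chr5:138171834-138172133, minus strand: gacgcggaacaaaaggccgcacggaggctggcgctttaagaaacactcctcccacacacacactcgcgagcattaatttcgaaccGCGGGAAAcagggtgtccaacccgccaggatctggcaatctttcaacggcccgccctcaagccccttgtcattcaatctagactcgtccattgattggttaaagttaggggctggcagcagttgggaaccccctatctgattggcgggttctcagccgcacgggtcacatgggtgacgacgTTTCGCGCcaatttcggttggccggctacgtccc

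In Kif11 the CHR word began 19 bases before the start, at position −19, and in Cenpf at position 3 within the transcript. Top2a held 4 CHR words, beginning at −179, −140, −120 and −23. A CHR word began within 50 bases of the start in 11 of 15 mitosis genes (73.3%), in 22 of 35 other mitosis genes (62.9%), in 0 of 11 S phase genes and in 4.26% of tested genes. The E2F word of Cdk2 began at −140, and those of Mcm7 at −165 and 17 in the window shown. That window also held a CHR word at −173, left in lower case. A second window of Mcm7, chr5:138171217-138171516, held 0 E2F words and is not shown. These matches describe letters in the windows and do not show binding.

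**Figure D1:**
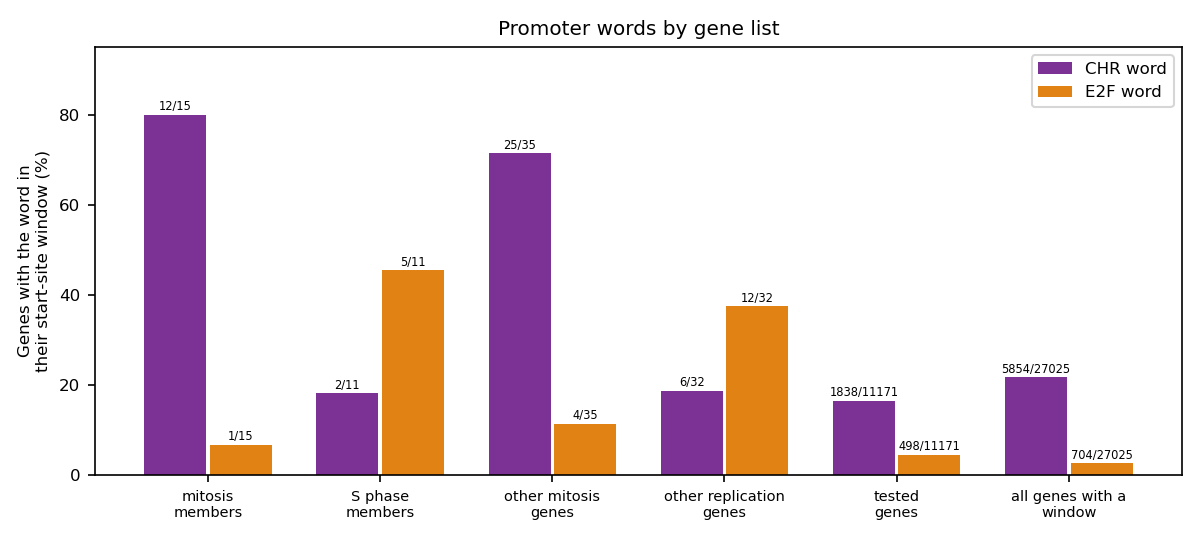
Share of genes (percent, y axis) whose window around the start holds a CHR word or an E2F word, for 6 sets of genes; the fractions above the bars are genes with the word over genes with a window. The CHR word stood in 12 of 15 mitosis members and the E2F word in 5 of 11 S phase members.

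Prrx1, the gene after which the allele is named, had 201, 194 and 183 normalized counts in the Prrx1(R1A)-/- libraries, against 415, 335 and 282 in the controls. Of the 157992 values in the table, 1 did not come out as whole reads, that of Prrx1 in control replicate 3. The Prrx1(R1A)-/- libraries held 11878824 to 14658584 reads, of which ribosomal RNA took 26.7% to 39.8%, and the controls 10580961 to 12080965 reads with 12.0% to 46.5% ribosomal RNA. Control replicate 1 stood apart, with correlations across genes of 0.890 to 0.908 to the other 5 libraries, against 0.958 between control replicates 2 and 3. Values below are the authors' normalized counts. Differences are log2 fold changes of the normalized count plus 1, Prrx1(R1A)-/- over control, tested by limma with Benjamini-Hochberg adjustment over all 14584 genes that reached 10 in at least 3 libraries.

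Most of the 40 genes were read at low levels, and none differed between genotypes past the adjusted threshold of 0.05. Of the 37 that could be tested, 32 had a log2 fold change below 0 and 5 above, with a median of −0.28, beside 50.3% below 0 and a median of −0.004 over all genes tested. None of the 37 was called (smallest adjusted p = 0.314, limma), where 0.0137% of all genes were. At an unadjusted p under 0.05, 5 of 37 were lower in Prrx1(R1A)-/- nuclei and 0 higher, where 5.25% of all genes were lower and 6.67% higher. Every Prrx1(R1A)-/- library lay below every control for 5 of the 37, where this held for 8.36% of all genes, and above every control for 0 of the 37, where this held for 8.89%. With edgeR 4 of the 37 were lower at an unadjusted p under 0.05, where 5.64% of all genes were, and with DESeq2 5, where 6.16% were. Neither tool called any of them after adjustment, where DESeq2 called 1.67% of all genes. DESeq2 left some genes of low counts without an adjusted p-value, Mcm2 among them, and such genes could not be called with it.

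The precision of these values was limited. The 95% interval of the log2 fold change excluded 0 for 5 genes and included it for 32, and it reached 0.47 to 2.73 to either side of the estimate, with a median of 0.99. For 14 genes, among them Ccnd1, Ccnd2, Ccnd3, Cdk2, Cdk4, Cdk6, Mcm7, Cdkn1a, Cdkn1c and Rb1, exons share bases with a gene on the other strand, and reads of an unstranded library cannot be divided between them. In bulk nuclei, fewer cycling nuclei and less RNA in each cannot be told apart.

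**Figure D2:**
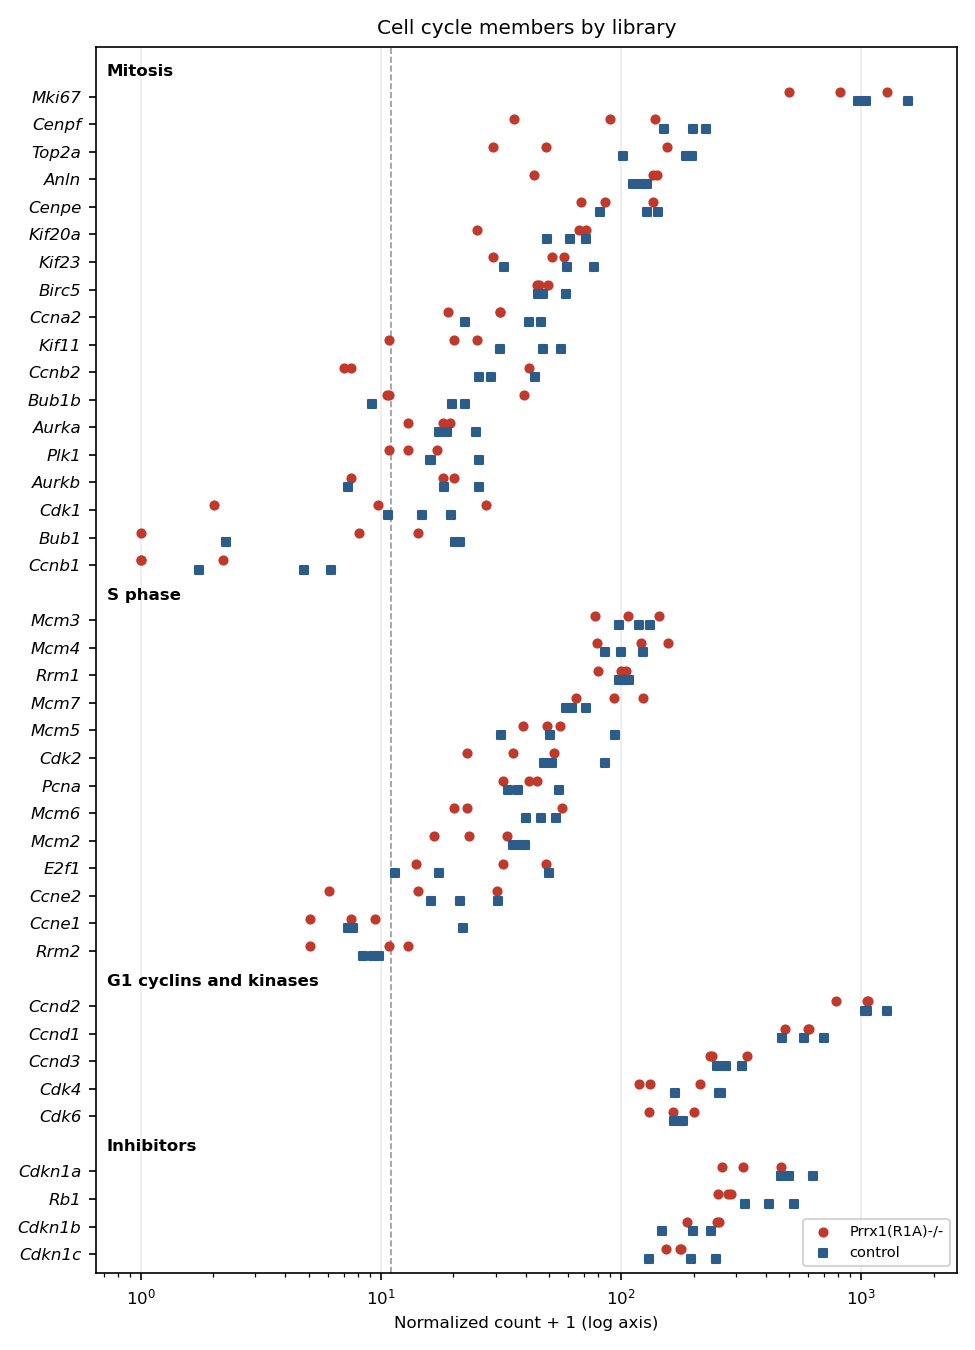
Normalized count plus 1 (x axis, log scale) of each of the 40 genes in the 6 libraries, grouped by role. In each gene's row the Prrx1(R1A)-/- points are drawn in the upper line and the control points in the lower line. The dashed line marks the normalized count of 10 used to filter genes. G1 genes and inhibitors lie mostly above 100, while most S phase and mitosis genes lie below it, and Mki67 is the highest of the mitosis genes.

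Read per kilobase of exon, the median levels of the G1 genes and the inhibitors stood above those of S phase and mitosis, although single genes crossed this order. The sources used here do not say whether reads were counted over exons only, so levels per kilobase are approximate. The median level was 47.2 normalized counts per kilobase in Prrx1(R1A)-/- nuclei and 69.9 in controls for the G1 genes, and 66.4 in Prrx1(R1A)-/- nuclei and 81.8 in controls for the inhibitors. The S phase genes had medians of 8.53 in Prrx1(R1A)-/- nuclei and 9.73 in controls, and the mitosis genes 6.01 in Prrx1(R1A)-/- nuclei and 8.5 in controls. Ccnd1, which encodes cyclin D1, had the highest level among the G1 genes, 119 in Prrx1(R1A)-/- nuclei and 123 in controls. Among the mitosis genes the highest was Mki67, with 85.7 in Prrx1(R1A)-/- nuclei and 118 in controls, and the lowest Ccnb1, with 0.095 in Prrx1(R1A)-/- nuclei and 0.768 in controls.

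Nearly all genes of mitosis and cytokinesis had lower estimates in Prrx1(R1A)-/- nuclei, and none was called. Of the 17 tested, 16 had a log2 fold change below 0, with a median of −0.40 (−0.62 without control replicate 1, where 15 were tested). At an unadjusted p under 0.05, 3 of the 17 were lower and 0 higher, where 5.25% of all genes were lower. Those 3 were Cenpf, Top2a and Kif11, and none passed after adjustment. The exception above 0 was Bub1b, a spindle checkpoint kinase, at 0.05 ± 0.73 (SE).

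Cenpf (identifier 108000, chr1:189640606-189688086, minus strand) encodes centromere protein F, which gathers at kinetochores in mitosis. It had 34.7, 137 and 88.9 normalized counts in the Prrx1(R1A)-/- libraries, against 225, 149 and 198 in the controls. Each Prrx1(R1A)-/- library lay below each control, with the first far below the rest. The means were 86.8 ± 51.1 in Prrx1(R1A)-/- nuclei and 191 ± 38.6 in controls (SD, n = 3 each), and the log2 fold change was −1.31 ± 0.45 (SE; 95% interval −2.3 to −0.32; adjusted p = 0.314, limma).

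Top2a (identifier 21973, chr11:98992943-99024189, minus strand) encodes the DNA topoisomerase that untangles chromosomes for segregation. Its normalized counts were 28.2, 154 and 47.5 in the Prrx1(R1A)-/- libraries, against 101, 197 and 185 in the controls. The groups overlapped, since Prrx1(R1A)-/- replicate 2 lay above control replicate 1. The log2 fold change was −1.37 ± 0.55 (adjusted p = 0.369, limma). The means were 76.4 ± 67.5 in Prrx1(R1A)-/- nuclei and 161 ± 52.6 in controls (SD), the first 47.5% of the second. The fold change compares means of log2 values and is not the ratio of these means.

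Kif11 (identifier 16551, chr19:37376403-37421859, plus strand) encodes the kinesin that pushes spindle poles apart. It had 9.77, 24 and 19.2 normalized counts in the Prrx1(R1A)-/- libraries, against 30.2, 46.4 and 54.9 in the controls. These values rest on 9, 20 and 19 reads in the Prrx1(R1A)-/- libraries and 24, 62 and 74 in the controls. The groups did not overlap, and the log2 fold change was −1.31 ± 0.54 (95% interval −2.49 to −0.13; adjusted p = 0.376, limma).

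Mki67, whose protein Ki-67 coats mitotic chromosomes and is a common marker of proliferation, had the highest counts of the mitosis genes. It had 500.5, 1273 and 814 normalized counts in the Prrx1(R1A)-/- libraries, against 1555, 969 and 1047 in the controls. Prrx1(R1A)-/- replicate 2 lay above control replicates 2 and 3, and the log2 fold change was −0.53 ± 0.32 (95% interval −1.24 to 0.17; adjusted p = 0.534, limma). Mki67 made up 53.7%, 60.7% and 53.9% of the summed normalized counts of the 18 mitosis genes in the Prrx1(R1A)-/- libraries, against 63.6%, 50.9% and 49.5% in the controls. Its share thus overlapped between genotypes.

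The cyclins and kinase that drive mitotic entry were read thinly. Ccnb2, a B-type cyclin, had 6.51, 6 and 40.4 normalized counts in the Prrx1(R1A)-/- libraries, against 27.7, 42.7 and 24.5 in the controls (log2 fold change −1.29 ± 0.74; adjusted p = 0.511, limma). Prrx1(R1A)-/- replicates 1 and 2 were low, and replicate 3 lay within the controls. Cdk1, their kinase partner, had 8.69, 26.4 and 1.01 in the Prrx1(R1A)-/- libraries, against 13.8, 9.74 and 18.5 in the controls (−0.85 ± 0.96). Ccna2, which encodes cyclin A2, had 30.4, 18 and 30.3 in the Prrx1(R1A)-/- libraries, against 21.4, 40.4 and 45.2 in the controls (−0.40 ± 0.51). The groups overlapped for each of these genes. Ccnb1, the other B-type cyclin, did not reach the filter: it had 0, 1 and 0 reads in the Prrx1(R1A)-/- libraries, against 3, 1 and 7 in the controls. A count of 0 allows up to 3 reads, which is 3.03 to 3.6 normalized counts in the Prrx1(R1A)-/- libraries, so at this depth no difference was detectable for Ccnb1.

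The remaining mitosis genes overlapped between the genotypes. The kinesins Kif20a and Kif23 and the scaffold Anln, which act in cytokinesis, had log2 fold changes of −0.28 ± 0.48, −0.26 ± 0.48 and −0.36 ± 0.44. The kinetochore motor Cenpe had −0.31 ± 0.37. The mitotic kinases Plk1, Aurka and Aurkb had −0.48 ± 0.62, −0.28 ± 0.57 and −0.10 ± 0.74, and Birc5, which forms the chromosomal passenger complex with Aurkb, −0.11 ± 0.39. Bub1, a checkpoint kinase at kinetochores, had 0, 13.2 and 7.07 normalized counts in the Prrx1(R1A)-/- libraries, against 1.26, 20.2 and 19.3 in the controls (−1.03 ± 1.25, the widest interval of all).

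**Figure D3:**
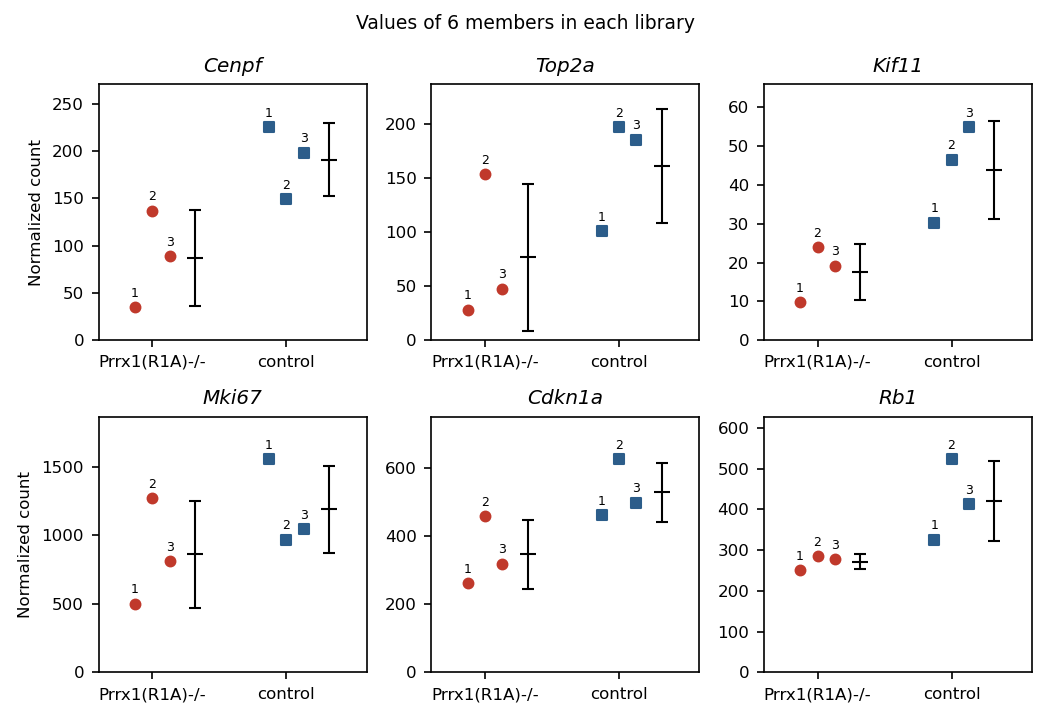
Normalized counts in each library (points, numbered by replicate) with the mean and SD (n = 3 per genotype) of Cenpf, Top2a, Kif11, Mki67, Cdkn1a and Rb1, Prrx1(R1A)-/- left of control. The groups did not overlap for Cenpf, Kif11, Cdkn1a and Rb1, and they overlapped for Top2a and Mki67.

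Prrx1(R1A)-/- replicate 1 stood lowest across the mitosis genes. It held the lowest of the 6 values for 9 of the 17 tested mitosis genes, against 4 and 2 in Prrx1(R1A)-/- replicates 2 and 3 and 1, 0 and 1 in the controls. The median deviation of these genes from their mean over the 6 libraries, on the log2 scale, was −0.73, 0.09 and 0.04 in the Prrx1(R1A)-/- libraries, against 0.18, 0.28 and 0.60 in the controls. By this median, Prrx1(R1A)-/- replicates 2 and 3 lay nearer to the controls than to replicate 1. Summed over the 18 mitosis genes, normalized counts were 933, 2099 and 1509 in the Prrx1(R1A)-/- libraries, against 2444, 1904 and 2116 in the controls. With all 18 genes the sums thus overlapped between genotypes. Without Mki67 the sums were 432, 825 and 695 in the Prrx1(R1A)-/- libraries, against 888, 935 and 1069 in the controls, and they did not overlap.

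Without Prrx1(R1A)-/- replicate 1, 26 of the 37 tested genes and 12 of the 17 mitosis genes had a log2 fold change below 0, and 0 of the 37 had an unadjusted p under 0.05, where 4.82% of all genes were lower at that level. The log2 fold change was then −0.76 for Cenpf, −0.84 for Top2a, −0.96 for Kif11 and −0.19 for Mki67. Without control replicate 2 or control replicate 3, 35 of the genes were tested and 1, Cenpf, had an unadjusted p under 0.05 with a lower value, where 2.92% and 3.58% of all genes were lower in these fits. Without Prrx1(R1A)-/- replicate 2 there were 5 of 35, namely Cdkn1a, Cenpf, Kif11, Mki67 and Top2a, where 3.49% of all genes were lower. Without Prrx1(R1A)-/- replicate 3 there were 5 of 36, namely Ccnb2, Cdk4, Cenpf, Kif11 and Mcm6, where 4.03% of all genes were lower. Without control replicate 1, the library that stood apart, there were 6 of 35, where 11.2% of all genes were lower. In that fit 1 of the 35 was called, Rb1, where 9.16% of all genes were called in either direction and 3.06% lower.

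**Figure D4:**
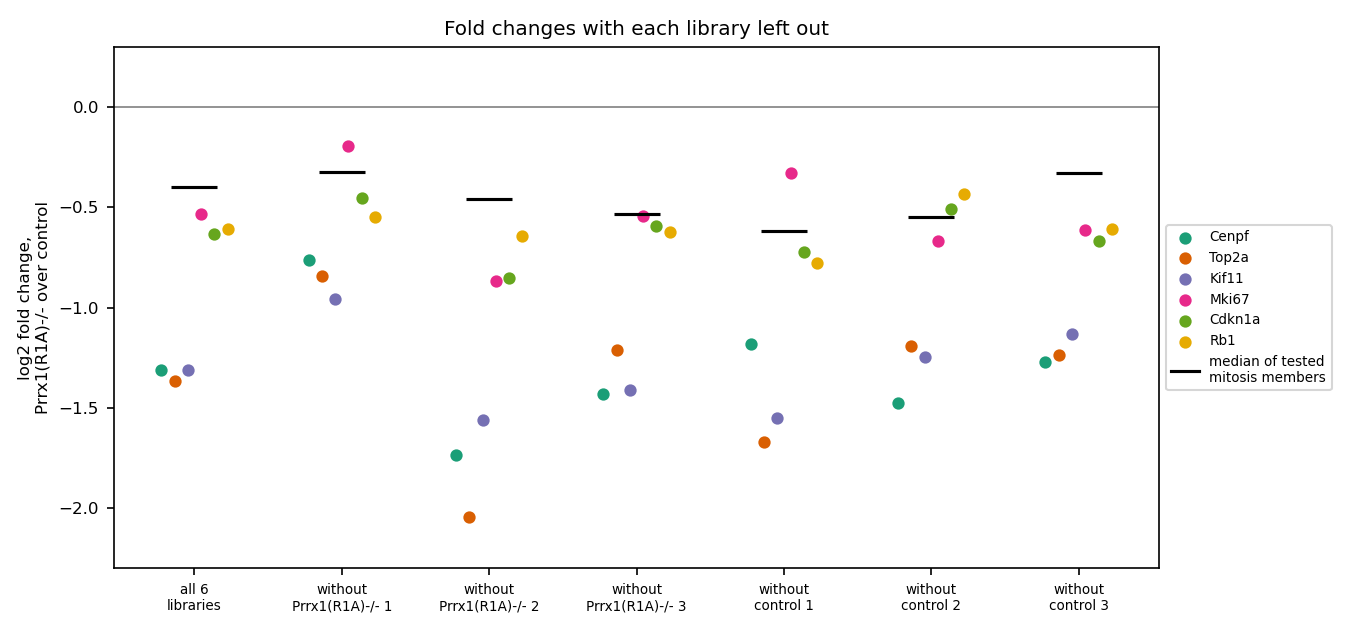
Log2 fold change, Prrx1(R1A)-/- over control (y axis), of 6 genes (points) and the median of the tested mitosis members (black line) with all 6 libraries and with each library left out in turn. Cenpf moved between −1.74 and −0.76 and Top2a between −2.05 and −0.84, nearest to 0 without Prrx1(R1A)-/- replicate 1, and all values stayed below 0.

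No gene of S phase passed a threshold between the genotypes. Of the 11 tested, 8 had a log2 fold change below 0 and 3 above, with a median of −0.12, and none had an unadjusted p under 0.05 by limma or was called. The median was −0.055 without Prrx1(R1A)-/- replicate 1, −0.20 without Prrx1(R1A)-/- replicate 3 and −0.24 without control replicate 2. Cdk2 (identifier 12566, chr10:128697939-128705031, minus strand), the kinase partner of cyclin E, had 21.7, 51.6 and 34.4 normalized counts in the Prrx1(R1A)-/- libraries, against 46.6, 84.6 and 50.4 in the controls. Its groups overlapped, with a log2 fold change of −0.77 ± 0.47 (95% interval −1.80 to 0.26; adjusted p = 0.539, limma).

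Mcm2 to Mcm7 encode the 6 subunits of the replicative helicase, and their log2 fold changes lay on both sides of 0. Mcm2 (identifier 17216) had 32.6, 15.6 and 22.2 normalized counts in the Prrx1(R1A)-/- libraries, against 37.7, 34.5 and 38.6 in the controls. Each Prrx1(R1A)-/- library lay below each control, and the log2 fold change was −0.69 ± 0.49 (95% interval −1.76 to 0.39; adjusted p = 0.598, limma). Mcm7 (identifier 17220), in contrast, had 64.1, 92.4 and 122 in the Prrx1(R1A)-/- libraries, against 61.7, 70.4 and 57.8 in the controls. Prrx1(R1A)-/- replicates 2 and 3 lay above all controls and replicate 1 within them, with a log2 fold change of 0.50 ± 0.37 (95% interval −0.30 to 1.30; adjusted p = 0.605, limma). Exons of Mcm7 share bases with Ap4m1 and Cops6 on the other strand. The remaining subunits had −0.64 ± 0.51 for Mcm6, −0.17 ± 0.47 for Mcm5, −0.12 ± 0.34 for Mcm3 and 0.17 ± 0.35 for Mcm4.

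The other replication genes overlapped between genotypes as well. Pcna, the sliding clamp of DNA polymerase, had 40.2, 31.2 and 43.5 normalized counts in the Prrx1(R1A)-/- libraries, against 32.7, 53.9 and 36.3 in the controls (log2 fold change −0.08 ± 0.44). Rrm1, the large subunit of ribonucleotide reductase, had −0.12 ± 0.31, the transcription factor E2f1 0.38 ± 0.69, and Ccne2, which encodes cyclin E2, −0.67 ± 0.71. Ccne1 and Rrm2 did not reach the filter. Ccne1, which encodes cyclin E1, had 6, 7 and 4 reads in the Prrx1(R1A)-/- libraries, against 5, 28 and 9 in the controls. Rrm2, the small subunit of ribonucleotide reductase, had 9, 10 and 4 reads in the Prrx1(R1A)-/- libraries, against 7, 11 and 10 in the controls.

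**Figure D5:**
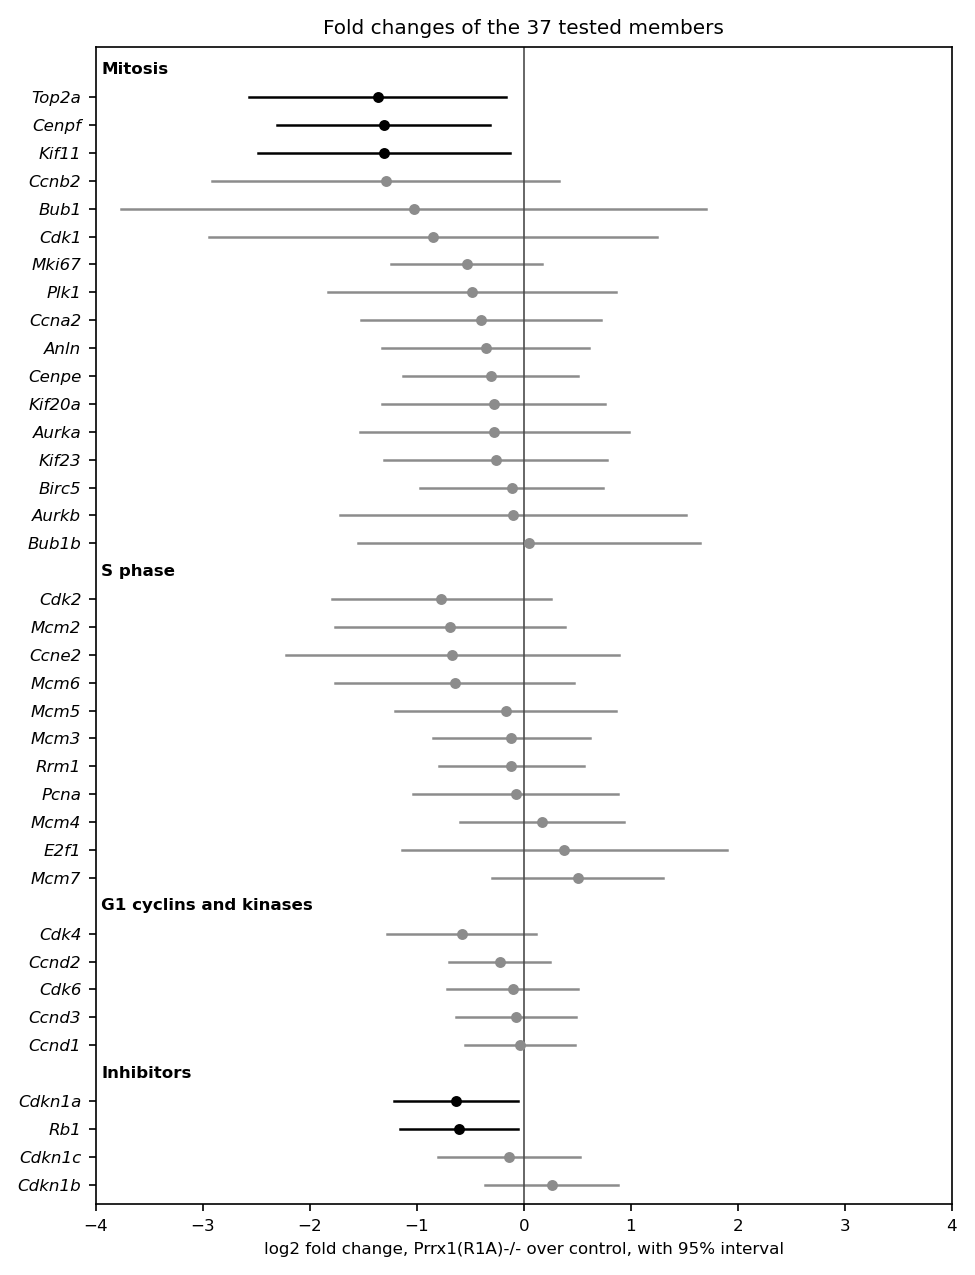
Log2 fold change, Prrx1(R1A)-/- over control, with its 95% interval for each of the 37 tested genes, grouped by role. The intervals of Cenpf, Top2a, Kif11, Rb1 and Cdkn1a lay wholly below 0, the other 32 included 0, and none of the 37 passed the adjusted threshold.

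The G1 cyclins and kinases were among the most abundant of the 40 genes and none was called. All 5 had a log2 fold change below 0 with a median of −0.10 (−0.24 without Prrx1(R1A)-/- replicate 3), their groups overlapped, and none had an unadjusted p under 0.05 by limma. Without Prrx1(R1A)-/- replicate 1 or control replicate 3, 3 of the 5 lay below 0. Cyclin D2, from Ccnd2 (chr6:127125162-127152193, minus strand), had 1049.8, 779.9 and 1065 normalized counts in the Prrx1(R1A)-/- libraries, against 1279.7, 1056 and 1035 in the controls (−0.23 ± 0.22; 95% interval −0.70 to 0.25; adjusted p = 0.704, limma). Cyclin D1, from Ccnd1 (chr7:144929931-144939925, minus strand), had 601, 479 and 598 in the Prrx1(R1A)-/- libraries, against 466, 574 and 696 in the controls (−0.04 ± 0.23; 95% interval −0.55 to 0.48; adjusted p = 0.967, limma). For either cyclin a Prrx1(R1A)-/- library lay within the controls.

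Cyclin D3, from Ccnd3, had 233, 238 and 332 normalized counts in the Prrx1(R1A)-/- libraries, against 273, 249 and 317 in the controls (−0.08 ± 0.26; adjusted p = 0.933, limma). Of their kinase partners, Cdk4 had 131, 118 and 211 in the Prrx1(R1A)-/- libraries, against 166, 255 and 260.3 in the controls. Prrx1(R1A)-/- replicates 1 and 2 lay below all controls and replicate 3 within them (−0.58 ± 0.32; 95% interval −1.28 to 0.12; adjusted p = 0.495, limma). Cdk6 had 129, 199 and 163 in the Prrx1(R1A)-/- libraries, against 179.9, 175 and 165 in the controls (−0.10 ± 0.28; adjusted p = 0.913, limma).

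Among the inhibitors, Rb1 and Cdkn1a had the smallest p-values, and their values were lower in every Prrx1(R1A)-/- library than in any control; neither passed after adjustment. Rb1 (identifier 19645, chr14:73183673-73325822, minus strand), the retinoblastoma protein that holds E2F factors inactive, had 251, 286 and 278 normalized counts in the Prrx1(R1A)-/- libraries, against 326, 523 and 413 in the controls. The means were 271 ± 18.3 in Prrx1(R1A)-/- nuclei and 421 ± 98.7 in controls (SD, n = 3 each), and the log2 fold change was −0.61 ± 0.25 (95% interval −1.16 to −0.06; adjusted p = 0.379, limma). Without control replicate 1 it was −0.78 with an adjusted p of 0.041 by limma, the single call among the tested members when any library was left out. Exons of Rb1 share bases with Lpar6 and Rcbtb2 on the other strand.

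Cdkn1a (identifier 12575, chr17:29090976-29100727, plus strand) encodes p21, a kinase inhibitor induced by p53. It had 263, 459.5 and 319 normalized counts in the Prrx1(R1A)-/- libraries, against 462, 626 and 499 in the controls. The highest Prrx1(R1A)-/- value and the lowest control value lay close together, and the log2 fold change was −0.63 ± 0.26 (95% interval −1.21 to −0.05; adjusted p = 0.380, limma). Leaving out any 1 library moved it between −0.85 and −0.45.

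The other kinase inhibitors overlapped between genotypes. Cdkn1b, which encodes p27, had 249, 187 and 255 normalized counts in the Prrx1(R1A)-/- libraries, against 199, 147 and 236 in the controls (log2 fold change 0.26 ± 0.28; adjusted p = 0.744, limma). Cdkn1c, which encodes p57, had 153, 174 and 176 in the Prrx1(R1A)-/- libraries, against 248, 129.6 and 195 in the controls (−0.14 ± 0.30; adjusted p = 0.889, limma). Whether the inhibitors differ from one another in their response was not tested.

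The authors' deposited table lists 1900 genes with a p under 0.05, beside 26332 genes with values. Among them are 5 of the 40 genes, and 11 of the 117 other cell cycle genes counted below. With DESeq2 on recovered reads, 1881 of all 14584 tested genes had an unadjusted p under 0.05. The same held there for 5 of the 37 tested members and 11 of the 109 other cell cycle genes tested. In the authors' deposited table the log2 fold change was −0.86 for Cenpf, −0.83 for Kif11, −0.75 for Top2a, −0.56 for Rb1 and −0.53 for Cdkn1a. These are the authors' DESeq2 estimates, while the values above are differences of mean log2 values by limma. Their sizes are therefore not directly comparable. Their adjusted p-values in the authors' deposited table were 0.197 for Cenpf, 0.309 for Kif11, 0.345 for Top2a, 0.307 for Rb1 and 0.354 for Cdkn1a.

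Beyond the 40 genes, 117 other genes of the cell cycle were read, of which 109 could be tested. Of these, 64 had a log2 fold change below 0 and 45 above, with a median of −0.14. None was called, and 9 had an unadjusted p under 0.05, where 11.9% of all genes had one. Of the 9, 7 were lower in Prrx1(R1A)-/- nuclei and 2 higher, where 5.25% of all genes were lower and 6.67% higher. The other replication genes were balanced, with 17 of 38 below 0 and a median of 0.01. Of the other mitosis genes 22 of 36 lay below 0 with a median of −0.29, of the other G1 regulators and E2F factors 18 of 23 with a median of −0.13, and of the other inhibitors 7 of 12 with a median of −0.16. Without control replicate 1, 103 of them were tested and 5 called, namely Ccng2, Cit, Myc, Orc4 and Smc4, where 9.16% of all genes were called.

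In mitosis, Smc4, a subunit of condensin, had 263, 299 and 371 normalized counts in the Prrx1(R1A)-/- libraries, against 356, 649 and 676 in the controls (−0.81 ± 0.29; adjusted p = 0.328, limma). Ube2c, the ubiquitin-conjugating enzyme of the anaphase-promoting complex, had 5.43, 7.20 and 2.02 in the Prrx1(R1A)-/- libraries, against 21.4, 18.7 and 24.5 in the controls. Ube2c alone of the 109 reached the filter only through the controls, so it is given without its test, though it is 1 of the 7 lower genes counted above. Its exons share bases with Tnnc2. In replication, Orc4, a subunit of the origin recognition complex, had 141, 158 and 116 in the Prrx1(R1A)-/- libraries, against 182, 259.9 and 257 in the controls (−0.74 ± 0.28; adjusted p = 0.351, limma). Tk1, a thymidine kinase of nucleotide salvage whose exons share bases with Afmid, had 221, 229 and 263 in the Prrx1(R1A)-/- libraries, against 174, 147 and 151 in the controls (0.60 ± 0.26; adjusted p = 0.393, limma). For Tk1 the Prrx1(R1A)-/- libraries lay above all controls.

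Among G1 regulators, Ccng2, a cyclin that is high in cells leaving the cycle, had 25.0, 19.2 and 49.5 normalized counts in the Prrx1(R1A)-/- libraries, against 60.4, 90.6 and 114 in the controls (−1.54 ± 0.47; adjusted p = 0.264, limma). Rbl2, a relative of Rb1 that belongs to the DREAM complex, had 534, 422 and 473 in the Prrx1(R1A)-/- libraries, against 844, 587 and 492 in the controls (−0.40 ± 0.25; adjusted p = 0.553, limma). Of the inhibitors, Gadd45b, a stress-induced gene, had 32.6, 34.8 and 54.6 in the Prrx1(R1A)-/- libraries, against 154, 69.7 and 86.8 in the controls (−1.28 ± 0.42; adjusted p = 0.296, limma). Ccng2 and Gadd45b did not overlap between genotypes, while Rbl2 did. Of the 109 other cell cycle genes tested, 10.1% did not overlap, in either direction, where this held for 17.2% of all genes. Cdkn2c, an inhibitor of Cdk4 and Cdk6, had 13, 7.20 and 6.06 in the Prrx1(R1A)-/- libraries, against 12.6, 34.5 and 24.5 in the controls (−1.31 ± 0.68; adjusted p = 0.469, limma).

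Summed markers of some cell types differed between genotypes beside these values. The cardiomyocyte markers had 10 of 10 log2 fold changes above 0 (median 1.25), and summed to 804077 to 1504847 normalized counts in the Prrx1(R1A)-/- libraries, against 300458 to 578634 in the controls. The fibroblast markers had 10 of 10 below 0 (median −0.66), with sums of 31978 to 36578 in the Prrx1(R1A)-/- libraries and 45308 to 75063 in the controls. The immune markers had 12 of 12 below 0 (median −0.56), with sums of 7037 to 7626 in the Prrx1(R1A)-/- libraries and 7983 to 14967 in the controls. These sums did not overlap between genotypes, and limma called no single marker. Gene by gene, 6 of 10 cardiomyocyte, 7 of 10 fibroblast and 7 of 12 immune markers did not overlap, where this held for 17.2% of all genes. Control replicate 3 held the highest of the 6 values for 3 of the 10 cardiomyocyte markers. DESeq2 called 6 of the 10 cardiomyocyte, 4 of the 10 fibroblast and 1 of the 12 immune markers, where it called 1.67% of all genes. Limma without control replicate 1 called 5 of the cardiomyocyte and 5 of the fibroblast markers and 0 of the immune ones. It called 9.16% of all genes there, and 3.06% as lower. In that fit 2 of the 10 cardiomyocyte markers lay below 0, and the immune median was −0.35 with 11 of 12 below 0. With quantile scaling 1 of the 10 cardiomyocyte markers lay below 0 and their median was 0.41, while the fibroblast median was −1.0. The cardiomyocyte markers had by far the highest sums, as the label has it, and RNA of other cell types was read in the sorted nuclei as well.

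The other marker lists overlapped between genotypes in their sums. Endothelial markers had 8 of 10 below 0 (median −0.17), with sums of 24089 to 30208 in the Prrx1(R1A)-/- libraries and 29226 to 31521 in the controls. Smooth muscle and pericyte markers had 4 of 7 below 0 (median −0.05; 2195 to 3311 in the Prrx1(R1A)-/- libraries and 2028 to 3430.1 in the controls), and epicardial and mesothelial markers 4 of 7 (median −0.17; 7798 to 11663 in the Prrx1(R1A)-/- libraries and 7037 to 12454 in the controls). Among these lists limma without control replicate 1 and DESeq2 each called 1 smooth muscle or pericyte marker, Cspg4, and the first called 1 endothelial and 1 epicardial marker besides. Over all genes the first called 9.16% and DESeq2 1.67%. No marker of the lists given here was at 0 in any of the 6 libraries. The part of these cell types in the values of the cell cycle genes was not tested.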

How the data were processed

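Per the labels' protocols, RNA of PCM1-sorted nuclei was made into libraries with an Ovation kit (RNA-seq System V2) for sequencing on the HiSeq4000. The authors used STAR and DESeq2 with build mm10, per the submitters' processing notes. For versions, counter and annotation, the sources used here give nothing. The deposited signal is a normalized count, each value but 1 (Prrx1 in control replicate 3) a whole number of reads (tolerance 0.01) times 1 step per library, so reads were recovered by division. The authors' deposited comparison table gives log2 fold changes with standard errors, a mean signal, a Wald score, the p-value, the adjusted p-value and its −log10.

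Of 26332 genes with values (847 entries without a value were left out), 14584 reached 10 in at least 3 libraries. They were tested with limma 3.58.1 (R 4.3.3) on log2(normalized count + 1), two-sided, genotype as the single term. The scale understates changes of low genes. Errors are SE of the fit and SD over 3 libraries. Each library is 1 animal. The limit of 3 reads covers counting error only. Sgo1, named Sgol1 in the files, was matched by identifier. Alternatives were recovered reads in edgeR 4.0.16 and in DESeq2 1.42.0, quantile or TMM scaling, pseudocounts 0.5 and 5, a filter at 50 or none, the replicate number as a block, and each library left out. Same-numbered libraries did not deviate together (correlations −0.11, −0.02 and −0.09), so numbers were not used as pairs. Steps were tested on simulated data. There limma called 12 of 99 genes given a 2-fold change, 68 of 95 given a 4-fold change and 2 of 14144 left unchanged. Most changes of 2-fold were thus missed.

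The genes and lists were chosen with earlier results of these data known. Full statistics go to called genes and to the 3 smallest p-values among S phase and among mitosis genes, all G1 genes and inhibitors, and the 2 smallest in each other list; Ccnb2, Cdk1, Ccna2, Bub1, Mki67 and Pcna were given by library for their roles. Lengths, positions and overlaps are from GENCODE M21 (GRCm38), promoter windows from RefSeq (GRCm38.p6). Plots used matplotlib 3.10.9. A further marker list is not reported here.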

Additional observations from a re-analysis of the deposited data

How the results depend on the processing

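None of the 37 tested genes was called by limma, by edgeR or DESeq2 on recovered reads, with pseudocounts of 0.5 or 5, after TMM or quantile scaling, or with the replicate number as a block (0 called with the replicate block). The same held for the 40 tested without a filter and the 21 tested with a filter at 50. With DESeq2, genes left without an adjusted p-value, such as Mcm2, count here as not called. With each library left out in turn, the number called ran from 0 to 1 among the 35 to 37 genes tested, from 0 to 5 among the 101 to 106 other cell cycle genes tested and from 0 to 1312 among all genes, the highest each time without control replicate 1. Over all genes limma called 2, against 0 after quantile scaling, 0 with edgeR, 244 with DESeq2 and 0 with the replicate block. The cause of these differences was not tested. The median log2 fold change with each library left out lay between −0.39 and −0.19 for the tested members, between −0.62 and −0.32 for the mitosis genes, between −0.24 and −0.055 for the S phase genes, between −0.24 and −0.08 for the G1 genes and between −0.41 and −0.26 for the inhibitors. The order of these medians is not the same in every setting: with edgeR that of the inhibitors was −0.39 and that of the mitosis genes −0.31.

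The direction turned only with a library left out, in 24 values of single genes, while 617 kept direction and side of the threshold. Another 4 values passed the adjusted threshold, those of Rb1, Ccng2, Orc4 and Smc4 by limma without control replicate 1. These counts cover the 37 tested genes and the 2 genes with the smallest p-values in each list of other cell cycle genes. The ranges were −0.65 to 0.20 for Anln, −0.62 to 0.35 for Aurkb, −0.19 to 0.0053 for Birc5, −2.09 to 0.11 for Bub1, −0.35 to 0.37 for Bub1b, −0.18 to 0.11 for Ccnd1, −0.24 to 0.016 for Ccnd3, −1.07 to 0.16 for Cdk1 and −0.26 to 0.054 for Cdk6. They were −0.39 to 0.073 for Cdkn1c, −0.080 to 0.99 for E2f1, −0.55 to 0.21 for Kif20a, −0.62 to 0.037 for Kif23, −0.34 to 0.10 for Mcm3, −0.055 to 0.44 for Mcm4, −0.54 to 0.24 for Mcm5 and −0.22 to 0.13 for Pcna. The ranges of Bub1, Bub1b and Cdk1 rest on 3 fits each, since these genes missed the filter in the other fits with a library left out.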
